A study of Homo sapiens with 9 samples.

Results

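RBFOX2 binding was described in the 3 RBFOX2 libraries of 10plex ABC in K562 cells, a human erythroleukemia line that carries the BCR-ABL1 fusion. ABC (antibody-barcode eCLIP) is a crosslinking and immunoprecipitation assay in which antibodies are tagged with DNA barcodes and pass their tag to the RNA they pull down, so that several RNA-binding proteins (RBPs) are read out from 1 tube. The cells were crosslinked with UV light at 254 nm and 400 mJ/cm2, and 10 antibodies were pooled, against RBFOX2, DDX3, EIF3G, FAM120A, IGF2BP2, LIN28B, PRPF8, PUM2, SF3B4 and ZC3H11A. No other treatment or genotype was named, and all 3 replicates were of the same cells. The libraries were chosen by their barcode label, which gave 3 of the 30 libraries of the K562 pool and of 54 libraries in the series. The 27 libraries of the other 9 RBPs served as the comparison.

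RBFOX2 belongs to the RBFOX family of splicing regulators, whose single RNA recognition motif reads GCATG, most often preceded by T (GCAUG and UGCAUG in RNA). In textbook models the protein promotes inclusion of an alternative exon when it sits in the intron downstream of that exon, and favours skipping when it sits upstream. Known targets lie in genes of the cytoskeleton, of signalling and of RNA processing itself.

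The sites below are those on which the results turn. They are shown on the strand of the transcript, 5′ to 3′, as DNA of build GRCh38, with each GCATG in capitals. The first set lies beside an alternative (cassette) exon or, for FLNA, near a short exon, and includes genes with an RBFOX-regulated exon in the literature.
NDEL1 (chr17:8463433-8463462, plus strand): gttttactaactGCATGgggctgactcagc
PTBP2 (chr1:96806618-96806647, plus strand): ctaatttattttGCATGgtctttaatttaa
NUMB (chr14:73316657-73316686, minus strand): actggttgctctGCATGgatacaggttctg
EPB41L2 (chr6:130879991-130880020, minus strand): cagctcgggagtGCATGttaccagcctgac
MAP3K7 (chr6:90544732-90544761, minus strand): GCATGccattctGCATGaaatgttattaac
TSC2 (chr16:2077796-2077825, plus strand): atggggctgcttGCATGacctcatcgtctg
DIAPH1 (chr5:141588182-141588211, minus strand): tgtttaGCATGtGCATGttctagctcattg
MACF1 (chr1:39465197-39465226, plus strand): atgtaatctgaaGCATGcctgggtcgcacc
FLNA (chrX:154356709-154356738, minus strand): cttgggcggccaGCATGgcggggcccggcc
MYO9B (chr19:17210416-17210445, plus strand): tcccggtgcagtGCATGctggggttccctg
SRC (chr20:37386532-37386561, plus strand): gggctgctgtctGCATGtgcttccactccc
DCTN2 (chr12:57541295-57541324, minus strand): atctgccatctcGCATGcaatgctctgcca
The second set holds the site with the highest enrichment in the replicate where it was lowest (HDAC4), those with the most reads, and the site with a narrow spread between replicates (SLC26A6).
HDAC4 (chr2:239365883-239365912, minus strand): tggtctgtgcctGCATGtctctgtgtgtcc
HPCAL1 (chr2:10335984-10336013, plus strand): tgtaaattaattGCATGttcgtatcctctg
LRCH4 (chr7:100575525-100575554, minus strand): gccccctgccctGCATGtcacctgtcctac
GSE1 (chr16:85645983-85646012, plus strand): cacgcttcctatGCATGcattctacctgct
NEAT1 (chr11:65422972-65423001, plus strand): gtggggcaggctGCATGgaaaatatccgca
SLC26A6 (chr3:48627141-48627170, minus strand): tatgtgtcccatGCATGctccccatctgac
In 15 of these 18 windows of 30 nt the central GCATG followed a T, and in 2 of them, MAP3K7 and DIAPH1, a second copy lay within the same window.

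A peak was called enriched when its share of RBFOX2 reads exceeded its share of the reads of the other 9 barcodes, the complement control (CC), by more than 8-fold with P below 0.001. Where the CC held no read in a peak, 1 read was taken, so at such peaks the fold follows from the RBFOX2 reads alone. With these limits 2500 of 28582 peaks (8.75%) passed in replicate 1, 5154 of 44343 (11.6%) in replicate 2 and 3373 of 29432 (11.5%) in replicate 3. P came from the chi-squared test in replicates 1 and 2, and from the chi-squared or Fisher's exact test in replicate 3. With chi-squared values remade from its reads, 4467 peaks of replicate 3 passed. Differences of replicate 3 from replicates 1 and 2 in enriched peaks thus cannot be told apart from the test. RBFOX2 reads in peaks numbered 470596, 655048 and 369943, and the library as a whole made up an estimated 18.1%, 17.2% and 14% of all reads of the pool, as fitted from the deposited values. The other libraries ranged from 13666 to 2189850 reads in peaks, so that RBFOX2 was not the shallowest. The values just inside and just outside the fold limit were 3.00 and 2.99 on the log2 scale in replicate 3. The K562 marker genes HBG1, HBZ, GATA1, TAL1, KLF1, LMO2 and NFE2, used to check the cell label, all had peaks in the pool in every replicate. Nothing in the labels states that the replicates came from separate cultures, so the spread between them may be technical. The source and cell line labels of replicate 3 read "K563", while its title names K562.

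Enriched peaks of the 3 replicates fell into 7978 sites, of which 6307 were enriched in 1 replicate, 1050 in 2 and 621 in all 3. At 607 of the 621 the 3 enriched peaks overlapped each other directly, and these are the sites described from here on. They made up 12.1% of the 5010 places where RBFOX2 had a peak, enriched or not, in every replicate. Of the enriched peaks of replicate 1, 47.7% were enriched again in replicate 2 and 35.8% in replicate 3, while 68.1% and 49.7% met a peak of any strength there. Of those of replicate 2, 24.5% were enriched again in replicate 1 and 26.3% in replicate 3. For replicate 3 the shares were 26.7% in replicate 1 and 37.7% in replicate 2. Sites found in more replicates had more reads: the median of the highest read number per site was 6 for sites enriched in 1 replicate, 12 in 2 and 26 in all 3. The share of sites holding GCATG in any of their enriched peaks was higher there too, at 32.4%, 58.1% and 71.3%, although the motif had no part in calling a peak. A site enriched in more replicates has more peaks in which the motif can be found, and more read numbers of which the highest is taken. Part of the rise in both measures is therefore built in. With 50 nt on either side counted in, the shares were 61.2%, 74.5% and 80.5%.

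At the 607 sites the median read number was 14, 25 and 14 in replicates 1 to 3, and 340 sites had at least 10 reads in each. The lowest log2 fold of the 3 replicates ranged from 3.01 to 6.20 over the sites. The SD of the log2 fold between replicates had a median of 0.54 and stayed under 1 at 86.3% of the sites.

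The RBFOX motif separated the RBFOX2 libraries from all the others. GCATG lay inside 33.1%, 36.6% and 47.0% of the enriched RBFOX2 peaks (38.9% ± 7.23, SD, n = 3), against a mean of 2.65% over the other 9 libraries. Each RBFOX2 library was above all 9 libraries of its replicate, and the next RBP, LIN28B, had a mean of 3.90%. The difference of 36.2 percentage points had p = 0.001 (adjusted p = 0.0025 over 5 tests) in a two-sided exact permutation test of the RBP label within replicates, and 0.001 is the smallest p that its 1000 label choices allow. TGCATG was found in 29.1% ± 5.81 of RBFOX2 peaks and in 0.73% of the others, a ratio of 39.8. The reversed complement CATGC, searched on the same strand, was in 20.4% of RBFOX2 peaks and 2.92% of the others, but the 2 words overlap in GCATGC. Peaks with CATGC and no GCATG made up 2.79% of all enriched RBFOX2 peaks and 2.30% of those of the others. Fewer RBFOX2 peaks lack GCATG, so these shares are not rates among peaks without it. In control windows, equally long and shifted by 500 nt, GCATG was present in 6.23% ± 0.43 for RBFOX2 and in 3.55% for the other libraries.

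**Figure D1:**
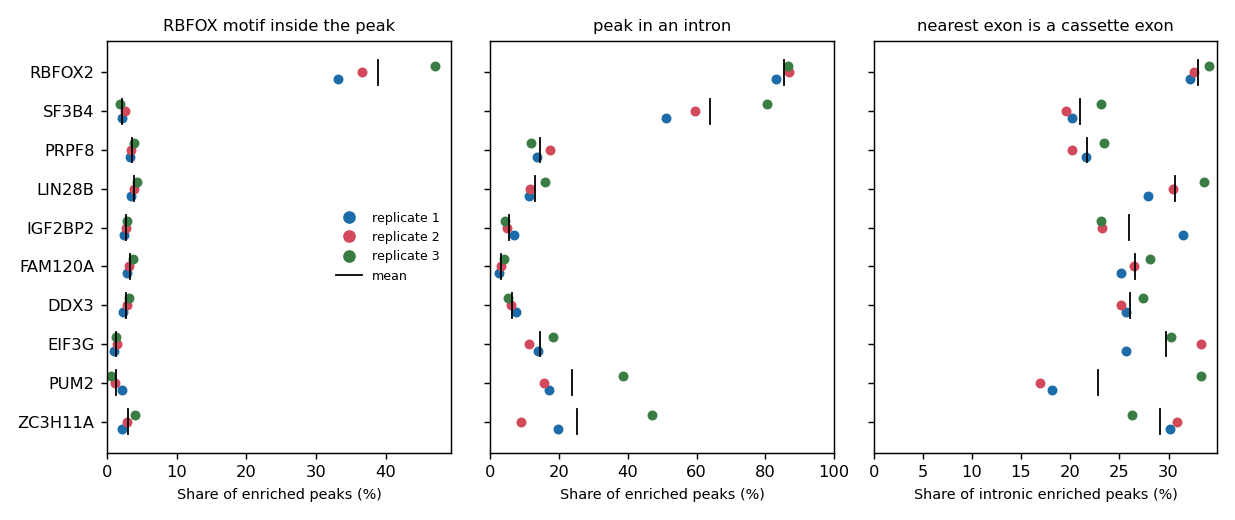
Shares of enriched peaks (x axes, percent) for the 10 RBPs of the K562 pool (y axis), with 1 point per replicate and a line at the mean of 3. From left to right: peaks with the RBFOX motif inside, where RBFOX2 (33.1 to 47.0%) stood apart from all others (at most 4.34%), peaks in introns, where RBFOX2 was followed by SF3B4, and intronic peaks whose nearest exon is a cassette exon, where the ranges overlapped.

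The base before GCATG differed from that of the motif elsewhere. In RBFOX2 peaks it was T in 71.2% ± 1.63 of copies, compared with 40.7% of the copies 500 nt away and 28.4% of those in the other libraries. G preceded the motif in 7.78% of copies in RBFOX2 peaks, and in 27.3% and 30.9% in these comparisons. After the motif, C was found in 35.5% (26.3% and 18.4%), and G in 17.4% (28.3% and 30.8%). Of the 15 pentamers that differ from GCATG at 1 base, GCTTG and GCACG had the highest ratios to the other libraries. GCTTG was in 6.43% ± 0.67 of RBFOX2 peaks and 2.75% of the others, a ratio of 2.34, and every RBFOX2 library was above all 9 of its replicate. GCACG was in 4.4% ± 0.92 and 1.89%, a ratio of 2.33, but exceeded all 9 other libraries in 1 replicate only. GTATG was at 2.44% and 2.45%, next to its level in the other libraries. These shares are descriptions and were not tested.

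GCATG lay towards the 5′ end of the peak. Where a copy lay within 50 nt of the peak, the median position of the nearest one was 20, 22 and 16 nt upstream of the peak centre in replicates 1, 2 and 3, and 80.7%, 83.1% and 80.7% of them were upstream. Measured from the 5′ end of the peak, the medians were 7.5, 7 and 11 nt, and 59.6 to 63.7% of the motifs were within 20 nt of that end on either side. In bins of 10 nt the density was highest from 30 to 20 nt upstream of the centre in replicates 1 and 2 (14 and 15.6 motifs per 100 peaks) and from 20 to 10 nt upstream in replicate 3 (21.1 per 100). These values were 6.90, 8.18 and 9.73 times the density in the outer bins. At the 607 shared sites the median was 18.7 nt upstream of the mean centre, with quartiles at -30.5 and -5.5 nt relative to it.

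**Figure D2:**
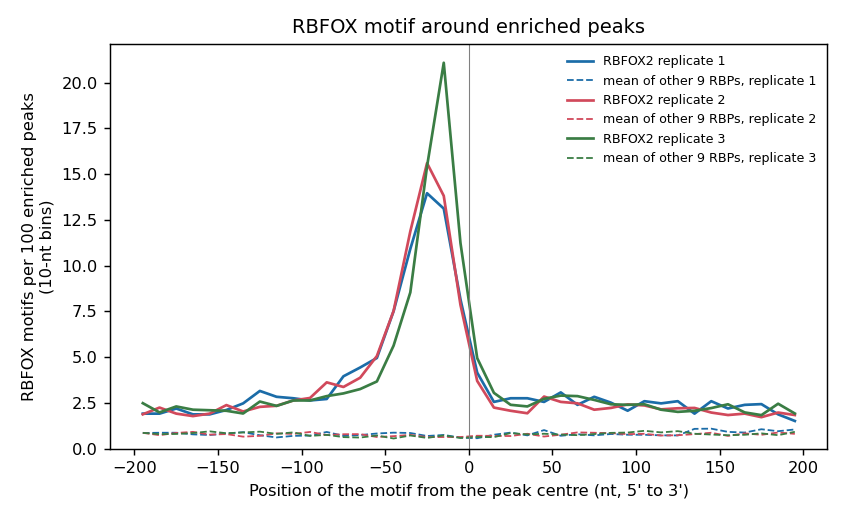
Density of the RBFOX motif (y axis, motifs per 100 enriched peaks in bins of 10 nt) by distance from the peak centre (x axis, nt, negative is 5′ on the transcript strand). Solid lines are the 3 RBFOX2 replicates and dashed lines the mean of the other 9 RBPs in each. The RBFOX2 lines reach 14 to 21.1 upstream of the centre, while the dashed lines stay flat.

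The share with the motif varied with strength, depth and region. It was 36.1% ± 3.40 for peaks enriched 8- to 16-fold, 37.8% ± 9.90 from 16 to 32-fold and 51.3% ± 5.56 at 32-fold or more. It was 27.1% ± 10.4 for peaks of 3 to 5 reads and 49.3% ± 4.60 for those of 11 to 30 reads, whose median length was also longer (64 to 65 nt compared with 43 to 47 nt). At 31 or more reads it was 46.6% ± 3.42. The fold classes are not independent of depth, since where the CC held no read the fold follows from the RBFOX2 reads. By region, the share was 49.6% ± 1.80 within 100 nt of a 3′ splice site, 46.6% ± 1.43 within 100 nt of a 5′ splice site, 46.1% ± 9.03 in 3′ untranslated regions and 40.1% ± 8.99 in distal introns. It was lower in coding sequence (23.9% ± 5.14) and in 5′ untranslated regions (21.7% ± 2.45), and lowest in small RNA genes (12.1% ± 3.76). Peaks in small RNA genes were also shorter, with medians of 35 to 41 nt compared with 55 to 59 nt at 5′ splice sites.

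Most RBFOX2 peaks enriched over the CC were intronic. Introns held 85.5% ± 2.06 of the enriched peaks, against a mean of 18.8% in the other libraries, and each RBFOX2 library was above all 9 others of its replicate. The difference of 66.8 percentage points had p = 0.001 (adjusted p = 0.0025, two-sided exact permutation). The size of the share depended on the background. With the external background (total RNA-seq per the methods) in place of the CC it was 42.3%, beside 12.2% in the others (p = 0.003, exact permutation). With the region taken at the peak centre it was 86.9%, beside 29.0% (p = 0.003, exact permutation). SF3B4, a component of the spliceosome that sits at the branch point, came next with 63.8%. Distal intron, more than 500 nt from the exons of a protein-coding transcript, was the largest class for RBFOX2 with 48.2% ± 2.42 of peaks, followed by proximal intron with 19.6% ± 0.51. The 607 shared sites had a similar make-up: 520 (85.7%) were intronic, of which 273 lay in distal and 127 in proximal introns of protein-coding genes, 44 at 5′ splice sites and 25 at 3′ splice sites. A further 36 were in 3′ untranslated regions, 18 in coding sequence and 13 in 5′ untranslated regions. GCATG was within 50 nt of 24 of the 25 sites at 3′ splice sites (96.0%) and of 86.4% of those at 5′ splice sites.

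A difference in proximity to exons as a whole was not shown. Of its intronic peaks 36.0% ± 1.71 were within 500 nt of an exon of any annotated transcript of the gene, against 41.7% in the other libraries (adjusted p = 0.884, two-sided exact permutation). The nearest exon was the one upstream, so that the peak followed its 5′ splice site, in 58.2% ± 0.47 of peaks and in 56.5% for the other libraries (adjusted p = 0.884, same exact permutation test). Both means of the other libraries rest on PRPF8 and SF3B4, spliceosome proteins with 89.1% and 93.9% of their intronic peaks within 500 nt, and with 87.1% and 8.74% after an exon. The other 7 RBPs ranged from 15.6% (FAM120A) to 38.7% (EIF3G) within 500 nt. Without PRPF8 and SF3B4, a comparison chosen after seeing the data, the mean within 500 nt was 27.5% and the difference from RBFOX2 changed sign (p = 0.131, exact permutation). By distance class, RBFOX2 was below the mean of all 9 others next to the splice site and above it farther out, and PRPF8 and SF3B4 raised that mean too: within 100 nt of an exon RBFOX2 had 7.98% of its peaks, PRPF8 79.98% and SF3B4 83.3%, while FAM120A (3.39%), IGF2BP2 (5.71%) and LIN28B (7.09%) had fewer than RBFOX2. The first 50 nt after an exon held 1.23% ± 0.10 of its intronic peaks (10.7% in the others), and the last 50 nt before one held 0.73% ± 0.18 (9.74%). From 100 to 200 nt after an exon the share was 6.35% ± 0.25 (3.26%), and from 200 to 500 nt it was 10.2% ± 0.75 (5.64%). From 200 to 500 nt before an exon it was 7.34% ± 0.36 (4.34%). Differences in single distance classes were not tested.

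**Figure D3:**
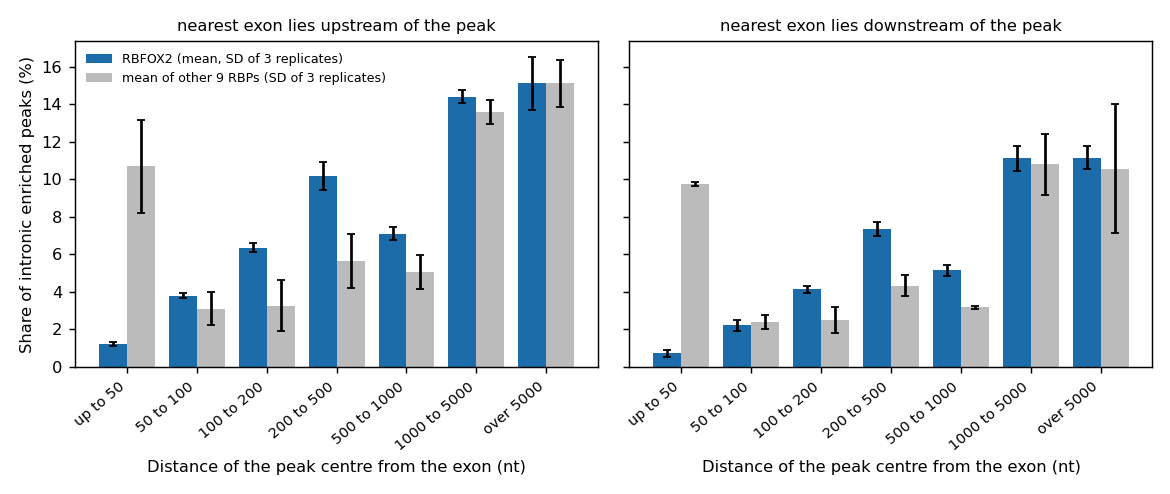
Share of intronic enriched peaks (y axis, percent) by distance of the peak centre from its nearest exon (x axis, nt), for peaks that follow the exon (left) and precede it (right). Blue bars are the mean of 3 RBFOX2 replicates and grey bars the mean of the other 9 RBPs, with the SD over replicates. RBFOX2 is low in the first 50 nt (1.23 and 0.73%), where the grey bars include the spliceosome proteins PRPF8 and SF3B4, and above the grey bars from 100 to 1000 nt.

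The exons nearest to RBFOX2 peaks were more often cassette exons, that is, exons that at least 1 annotated transcript of the gene skips. This held for 32.1%, 32.6% and 34.1% of the intronic peaks (32.9% ± 1.03), against 26.0% in the other libraries. The difference was 6.99 percentage points (p = 0.012, adjusted p = 0.02, two-sided exact permutation), and RBFOX2 exceeded all 9 others in 2 of 3 replicates. With cassette exons taken from the basic set of transcripts the share was 16.6% with p = 0.074 in the same exact permutation test, and without replicate 1 or replicate 3 the difference no longer passed (p = 0.06 and 0.08). Within 500 nt of the exon the cassette share was 38.2 to 39.2%, and beyond 500 nt it was 28.3 to 31.3%. It was 34.9 to 37.2% for peaks that precede the exon and 28.8 to 31.9% for peaks that follow it.

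Of the 520 intronic shared sites, 211 (40.6%) were within 500 nt of an exon, counted from the motif where there was one, and for 91 of these it was a cassette exon. These 91 sites, 63 after and 28 before their exon, marked 81 cassette exons in 71 genes. Where several annotated exons share the nearest splice site, the exon given here and below is the shortest. It need not be the form that is skipped. By this measure the marked exons had a median of 80 nt, and 52 of 81 (64.2%) had a length divisible by 3. For the 112 other exons within 500 nt of a site the median was 129 nt and 31.2% were divisible by 3, and for all 62668 annotated cassette exons of protein-coding genes the median was 116 nt and 25068 were divisible by 3. Exons of at most 51 nt, a length often used for microexons and chosen here after the values were seen, made up 28.4% of the marked cassette exons (23 of 81), 8.93% of the other exons near sites and 9.32% of all cassette exons. The other exons near sites were also taken in their shortest form. All annotated cassette exons were not, so their lengths are on an unlike measure. The 26 sites at these 23 microexons lay after the exon in 21 cases and before it in 5, and 23 of the 26 had GCATG.

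The shortest of these microexons was a 9-nt exon of DCTN2, a subunit of the dynactin complex that links dynein to its cargo (chr12:57541364-57541372), with the motif 54 nt downstream. Its site had 27, 103 and 55 RBFOX2 reads in replicates 1, 2 and 3, and a log2 fold of 4.97 ± 1.19. SRC, the prototype of the non-receptor tyrosine kinases, had a motif 69 nt after an 18-nt exon (chr20:37386460-37386477), with 15, 26 and 18 reads. All replicates were enriched there, but the log2 fold of 5.15 had an SD of 1.60, among the wider spreads. In MACF1, a linker of actin and microtubules, the motif was 99 nt after another 18-nt exon, with only 6, 7 and 6 reads. TEAD1, a transcription factor of the Hippo pathway, had a site 223 nt after a 12-nt exon with 15, 16 and 12 reads. KIF1B, a kinesin, had one 84 nt after a 42-nt exon with 18, 18 and 16 reads. In DIAPH1, a formin that nucleates actin filaments, the motif pair shown above was 27 nt after a 27-nt exon, with 39, 95 and 60 reads, and a second site followed 206 nt after the same exon. ARFGAP1, a GTPase-activating protein of the Golgi, had 3 sites after 1 exon of 30 nt, at 24, 262 and 489 nt, with the first at 72, 132 and 47 reads. The reads of replicate 2 were the highest at most of these sites, as in the libraries as a whole.

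RBFOX2 sites enriched in all replicates were assigned to 416 genes, which was 4.03% of the 10331 genes with a peak of any of the 10 RBPs in all 3 replicates. Of these genes 371 were protein-coding (4.01% of the 9249 protein-coding genes with a peak), 39 were long noncoding RNA genes and 6 of other types. Among the 4495 protein-coding genes with an RBFOX2 peak in every replicate, enriched or not, 8.25% had a shared site. Genes with a site were long: their median was 69.6 kb for protein-coding genes, compared with 34.0 kb for all with a peak and 38.0 kb for those with an RBFOX2 peak. Gene assignments are uncertain at 38 sites that also lie in another gene of the same strand, and 59 sites face a gene on the opposite strand.

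The highest share among the lists was in that of 30 genes with an RBFOX-regulated exon in the literature. A shared site was found in 11 of its 25 members with a peak (44%), with 19 sites in all, beside the 4.03% of all genes. NDEL1, a partner of dynein in neuronal migration, had 3 sites, 1 of them 93 nt after a 35-nt cassette exon (chr17:8463320-8463354), with 13, 24 and 10 reads and a log2 fold of 4.95 ± 0.91. PTBP2, the neuronal paralogue of the splicing repressor PTBP1, had a site 180 nt after a 34-nt cassette exon (chr1:96806419-96806452) with 35, 84 and 29 reads and a log2 fold of 4.77 ± 0.61. A second PTBP2 site lay 664 nt before the same exon, so that the exon was flanked on both sides. NUMB, an inhibitor of Notch signalling, had 3 sites, all before a 33-nt cassette exon (chr14:73316390-73316422). The nearest, at 250 nt, had 17, 25 and 9 reads and a log2 fold of 5.13 ± 0.30. MAP3K7, the kinase TAK1, had a site 115 nt before an 81-nt cassette exon with 72, 120 and 49 reads, and a log2 fold of 5.13 ± 0.71. NUMB and MAP3K7 thus had their motif on the upstream side, and NDEL1 and PTBP2 one on the downstream side.

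Downstream of the exon lay also the site of EPB41L2, a relative of the red cell membrane protein 4.1. It was 138 nt after a 63-nt cassette exon, with 112, 284 and 76 reads, and its log2 fold of 5.32 ± 0.19 had a narrow spread. In TSC2, a brake on mTOR signalling, the motif was 84 nt after a 129-nt cassette exon with 23, 25 and 33 reads. EWSR1, an RNA-binding protein of the FET family, had 5, 15 and 5 reads 354 nt after a 15-nt exon, close to the lowest numbers of any shared site. TJP1, the tight junction protein ZO-1, had 9, 19 and 5 reads at a motif 992 nt from the nearest exon. CTTN (cortactin, which stabilises branched actin) had 81, 73 and 63 reads before a 56-nt exon, and EPB41 (protein 4.1 itself) 72, 97 and 64 reads far from an exon, at 1256 nt. MYO18A, an unconventional myosin, had 4 sites spread over 34870 nt. The remaining 14 members with a peak had none, among them NUMA1 (1, 6 and 2 enriched peaks in replicates 1 to 3) and PICALM (0, 3 and 7), whose enriched peaks were not at the same place in all replicates.

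Genes for RNA-binding proteins were hit in part. Of 27 splicing regulators of other families with a peak, 4 had a site (14.8%). Besides PTBP2 and EWSR1 these were MBNL1, a regulator of developmental splicing, with 25, 55 and 16 reads 408 nt after a 54-nt cassette exon, and QKI, which binds a different motif, with 2 sites in its 3′ untranslated region. Of 23 hnRNP genes 3 had a site (13%), namely HNRNPA2B1, HNRNPH1 with 2 and PCBP2 with 1 in coding sequence. None of 13 genes of SR proteins and Tra2 had one, a list too small to tell this from the 4.03% of all genes. The gene of RBFOX2 itself had 1, 1 and 0 enriched peaks and no shared site, RBFOX1 had 0, 2 and 0, and RBFOX3 had no peak of any RBP.

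Sites in genes of actin-binding proteins included 2 with short exons nearby. In FLNA, which crosslinks actin, 111, 148 and 107 reads lay 527 nt after a 24-nt exon, with a log2 fold of 5.00 ± 0.14. In MYO9B, an unconventional myosin, 50, 267 and 95 reads lay 50 nt after a 48-nt cassette exon, with a log2 fold of 5.25 ± 0.17. These 2 sites were among the most even between replicates in fold, even though the reads of MYO9B were uneven. Of 24 genes of microtubules and motors 2 had a site (8.33%, beside 4.03% of all genes), NDEL1 and MAP4. Among members with an RBFOX2 peak in every replicate the share was 9.52%, beside 8.25% of such protein-coding genes.

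Of 27 genes of BCR-ABL signalling and related kinases 5 had a site (18.5%, beside 4.03% of all genes): BCR, STAT5A, RPTOR, MAP3K7 and TSC2. Among members with an RBFOX2 peak in every replicate the share was 25%, beside 8.25% of such protein-coding genes. In BCR, which contributes the 5′ part of the fusion in these cells, 26, 47 and 35 reads lay deep in an intron, 20498 nt from an exon. STAT5A, a transcription factor downstream of JAK kinases, had 12, 23 and 14 reads. ABL1 had 7, 5 and 1 enriched peaks but no site shared by all replicates. Of 28 red cell and erythroid genes 3 had a site (10.7%), EPB41, ANK1 and HBG2. Among members with an RBFOX2 peak in every replicate it was 12%. Differences of these lists from all genes were not tested. ANK1, the ankyrin of the red cell membrane, had 9, 10 and 14 reads 775 nt after a 135-nt cassette exon. The 2 sites given to HBG2 lie in long annotated transcripts that overlap HBE1 and olfactory receptor genes, so that their gene is uncertain.

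Polycomb genes had a site in 2 of 19 (10.5%), with JARID2 and PCGF3 at 2 sites each, and chromatin regulators in 4 of 30 (13.3%), namely ARID1B, SETD5, KDM4C and DNMT1. Of the lists taken for comparison, nuclear genes of the respiratory chain had 1 of 30 (NDUFS3, 3.33%) and cytoplasmic ribosomal proteins 0 of 30, both near the 4.03% of all genes at these list sizes. The lists differ in gene length as well as in function, and the part of length in these counts was not tested.

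**Figure D4:**
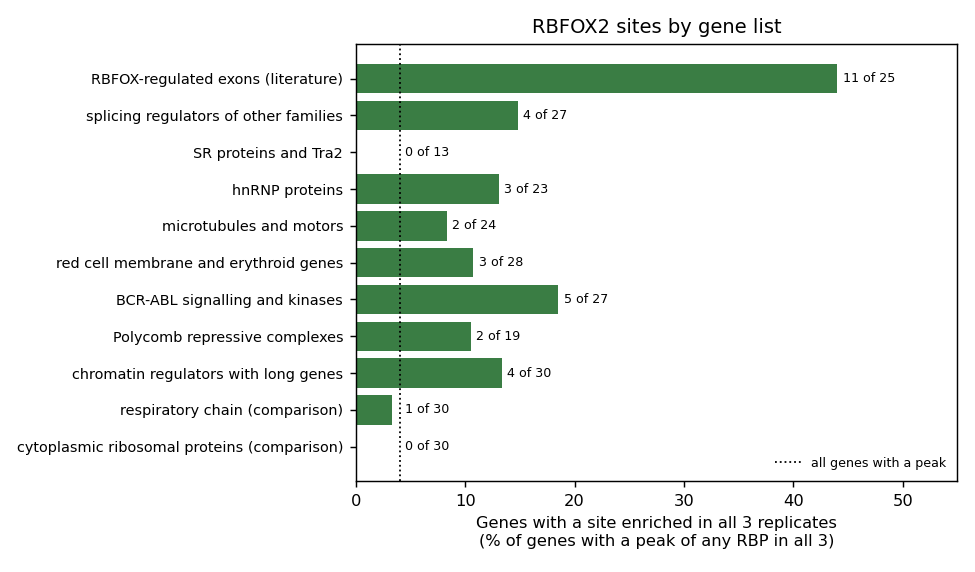
Share of genes with an RBFOX2 site enriched in all 3 replicates (x axis, percent of the genes with a peak of any of the 10 RBPs in all 3) for 11 gene lists (y axis), with the counts at the bars. The dotted line is the share of all genes, 4.03%. The list of RBFOX-regulated exons reaches 44%. Ribosomal (0 of 30) and SR protein genes (0 of 13) have no site, but these lists are too small to tell this from the share of all genes.

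By enrichment, the highest value in the replicate where it was lowest was at HDAC4, a class IIa histone deacetylase. It had 29, 184 and 96 reads, log2 folds of 7.03, 6.21 and 6.20, and lay 12980 nt from the nearest exon. HPCAL1, a calcium sensor, had 292, 540 and 434 reads and log2 folds of 5.91, 6.22 and 5.88. LRCH4 had the most reads of any shared site in its lowest replicate, with 696, 971 and 731, at log2 folds of 5.51, 5.58 and 5.81. It lay 165 nt after a constitutive exon of 78 nt, and another annotated gene of the same strand overlaps it. SLC26A6, an anion exchanger, had a lower fold of 5.30 ± 0.07 with 34, 43 and 56 reads. GSE1, a gene of chromatin complexes, had 2 neighbouring sites with 224, 479 and 195 reads and 240, 559 and 306 reads. The noncoding RNA NEAT1, the scaffold of paraspeckles, ranked high by reads (362, 503 and 281 at 1 site, 278, 891 and 214 at another) but low by fold, with a log2 value of 3.34 ± 0.19 at the first. Read number and fold thus ranked the sites differently. The sites of SMPD4 (75, 83 and 73 reads) and POTEE (154, 619 and 331 reads) are uncertain, since both genes have near-identical copies.

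**Figure D5:**
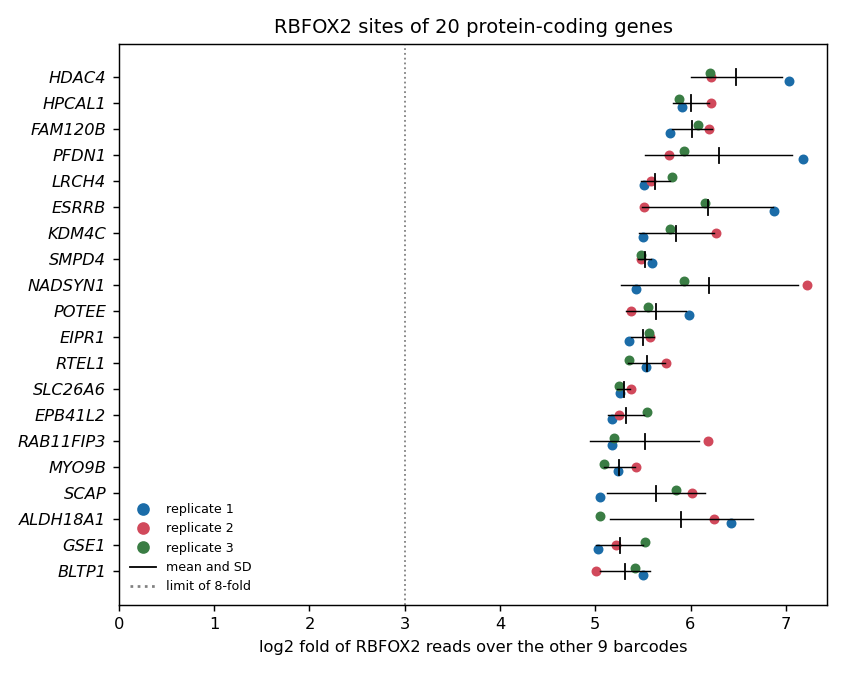
log2 fold of RBFOX2 reads over the other 9 barcodes (x axis) at 1 site in each of the 20 protein-coding genes (y axis) with the highest value in their lowest replicate. Points are the 3 replicates, black lines the mean and SD, and the dotted line the limit of 8-fold. All points lie above 5 on the log2 scale. HDAC4 is highest at 6.20 in its lowest replicate. Genes of chromosome 8 were left out, and the order was not tested.

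Most genes had a single site. Of the 416 genes, 293 had 1, 86 had 2, 19 had 3, 10 had 4, 7 had 5 and 1 had 10. Where a gene had more than 1, they spanned less than 2000 nt in 74 of 123 genes (60.2%). HDAC4 had 5 sites within 737 nt of 1 intron, all with GCATG. ADGRD1, an adhesion G protein-coupled receptor, had 5 within 1555 nt, and ARFGAP1 had 5 within 1230 nt. The gene with 10 was DNM2, the GTPase dynamin 2, whose sites spread over 12149 nt. Of these, 6 had 1 of 2 cassette exons, both of 139 nt, as their nearest exon, with 121, 265 and 135 reads at the strongest, and 6 of the 10 had GCATG. DGCR8, the RNA-binding partner of Drosha, had 5 sites, the strongest in coding sequence with 116, 172 and 104 reads.

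Copies of the motif were also repeated within sites. Of the 489 sites (80.6%) with GCATG within 50 nt, 300 had 1 copy, 112 had 2 and 77 had 3 or more. With these 50 nt on either side counted in, the motif occurred 5 or more times at 23 sites in 17 genes, and these were longer, with a median of 164 nt compared with 95 nt for all sites. HPCAL1 had 11 copies inside a site of 375 nt, every one preceded by T. MMP25-AS1 had 8 inside 334 nt, CARS2 8 inside 362 nt and PFDN1 7 inside 332 nt. The 5 sites of HDAC4 had 2 to 6 copies each inside the site. Within such an array a peak can span several motifs, and which of them was crosslinked cannot be told from the peak.

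No GCATG was found within 50 nt of 118 shared sites. Their median log2 fold was 4.32, compared with 4.45 for the sites with it, and 53 of them lay within 2000 nt of a site with GCATG in the same gene. Of the 118, 19 held GCACG. At 2 of these it occurred 5 or more times, 8 times in PFKP (a glycolytic phosphofructokinase) and 6 times in RPTOR (the raptor subunit of mTORC1), which are shown for this reason with GCACG in capitals.
PFKP (chr10:3084896-3084925, plus strand): ctccactctccaGCACGgtcccccattccc
RPTOR (chr17:80841288-80841317, plus strand): ctcactctcacaGCACGgcagctcacactc
The PFKP site had 21, 12 and 11 reads with a log2 fold of 5.30 ± 0.67, and the RPTOR site 6, 18 and 5 reads with 5.05 ± 0.35. Both lay above the median fold of the sites with GCATG, at few reads. At so few reads the fold depends strongly on the read number and on the read taken where the CC held none. FAM120B had 3 sites without GCATG, the strongest with 73, 136 and 22 reads and a log2 fold of 6.01 ± 0.21. The small Cajal body RNAs SCARNA7 (986, 192 and 339 reads) and SCARNA1 (263, 366 and 140 reads), which guide modification of spliceosomal RNAs, also had sites without GCATG, at log2 folds of 3.13 ± 0.11 and 3.40 ± 0.06.

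Another RBP of the pool had a peak at 244 of the 607 sites (40.2%), most often FAM120A (156 sites), PRPF8 (93) and SF3B4 (79). FAM120A and PRPF8 also had the most peaks over the 3 replicates, 176316 and 171842, and SF3B4 had 66670. ZC3H11A met 71 sites with 22222 peaks, so the order is not one of preference for these sites. An enriched peak of another RBP was present at 6 sites (0.988%), those of STX1A and OGT (SF3B4), CPNE7 and GYS1 (EIF3G), FAM13B (PUM2) and IRF9 (PRPF8). Since a peak is called against the sum of the other 9 barcodes, strong binding by 2 RBPs at 1 place lowers the value of both, so that the rule itself keeps the number of such sites small.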

How the data were processed

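ABC libraries of 10 RBPs in K562 cells were analysed from the deposited peak lists. Per the methods and the submitters' processing notes, the authors extracted molecular identifiers, trimmed reads with cutadapt 2.8, split them by barcode, set aside repeat reads, aligned with STAR 2.7.6 to GRCh38, removed duplicates and called peaks per library with CLIPper. The lists hold, as deposited, the CLIPper p-value, a whole-number display score (used only to read the lists), and, for touching peaks merged by the authors, −log10 P and log2 fold over a background. Read counts of replicates 1 and 3 stand in the deposited peak names. For replicate 2 they were worked out from the deposited fold and P, with the commonest fold taken as that of 3 reads. They were not checked against names there. Replicate 3 has the authors' log2 fold and −log10 P against the CC as deposited (chi-squared or Fisher's exact test). For replicates 1 and 2 the deposited names hold a chi-squared statistic and P, with repeats removed, and other name fields, so the log2 fold and CC reads were recovered by inverting the statistic, given the RBFOX2 reads in the peak and the size of each library. Where no whole number of CC reads fitted, the reads of the peak were shifted by a few until one did. They stayed as listed for 64.8% and 68.8% of enriched RBFOX2 peaks in replicates 1 and 2. Read numbers and folds printed for these replicates include the shifts. Whole CC reads (the statistic matched within 0.0002 plus 0.0001 of its value) came out thus for 99.6% and 99.0% of enriched RBFOX2 peaks. Among the comparison libraries they came out for 1.56% and 6.01% of PUM2 peaks and 77.9% of EIF3G peaks in replicate 1, and for at least 99.1% in each of the others; tests without PUM2 and EIF3G were added. On simulated data made from replicate 3 (29432 peaks, 4467 enriched by the chi-squared P), 99.96% of enriched peaks were recovered. Of the peaks called there, 0.0224% were false. The chi-squared statistics there were made from the listed reads. Recovery at peaks whose reads had to be shifted was not tested.

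Peaks with P below 0.001 and more than 8-fold over the CC were called enriched. A shared site needs overlap by 1 nt on the same strand in all 3 replicates. Regions, genes and exons came from GENCODE 44 (the authors used an earlier release), motifs from GRCh38 with pysam 0.24.0. The motif letters were searched on the transcript strand, overlapping copies included, and GCATG lies within TGCATG. Shares were compared between RBPs by an exact permutation of the RBP label within replicates (two-sided, 1000 choices, Benjamini-Hochberg over 5 tests) in Python 3.11.15 with numpy 2.4.6. Counting error at a site follows from its read number, which is printed, for replicates 1 and 2 with the shifts described above. Replicate numbers come from the titles, and the replicate was the block because its 10 libraries came from 1 tube.

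Members and lists were chosen with earlier results of these data known. Genes named were the 20 protein-coding genes with the highest lowest-replicate fold (those of chromosome 8 left out), the 10 with the most sites, the 10 sites with the most reads, up to 8 list members with a site, and the RBFOX family. Microexon genes, sites with repeated GCACG, the FAM120B sites and the 6 sites shared with another RBP were chosen after their values were seen. Libraries of other cells and of singleplex ABC were not used here. One of the gene lists and some marker genes are not reported here.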

Additional observations from a re-analysis of the deposited data

How the results depend on the processing

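Of the 5 shares tested, those with GCATG and in introns kept their direction and passed under every alternative run. With P below 1e-05 and fold above 16, enriched peaks numbered 1188 per library, sites 183 and genes 138. With the external background (total RNA-seq per the methods) in place of the CC they numbered 15057, 3753 and 1964, and the shares with GCATG and in introns were 19.0% (p = 0.001) and 42.3% (p = 0.003, exact permutation). Counting a gene enriched in every replicate at any site gave 655 genes. Searching GCATG inside the peak only, an alternative chosen after seeing the data like the exact binomial test and the minimum of 5 reads, put its median 13.7 nt upstream of the centre (-13.7), compared with -19.3; the other 2 kept counts within 1.5 times. The share at cassette exons was 16.6% with the basic set of transcripts (p = 0.074, exact permutation). Leaving out 1 replicate, sites shared by the other two ranged from 772 to 1101 and genes from 515 to 709, since 1 condition fewer is required. The cassette share ranged from 32.4% to 33.4%, with p = 0.06 without replicate 1 and 0.08 without replicate 3, where the smallest p of the exact permutation test is 0.01. The share after an exon ranged from 58.0% to 58.4%, and without replicate 3 its difference from the other libraries changed sign (-0.84 percentage points). Comparisons without some libraries were also chosen after seeing the data. Without PRPF8 and SF3B4 the differences from the other libraries changed sign for proximity to exons (36.0% beside 27.5%) and for the side of the exon (58.2% beside 58.9%), neither of them past the threshold, and the other calls held (cassette exons, p = 0.0449, exact permutation). Without PUM2 and EIF3G no call changed.

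The libraries of a replicate share a tube, and the replicate was the block in all 5 tests. Without the replicate block the permutation p was 0.000246 for GCATG (38.9%) and for introns (85.5%), 0.838 for proximity to exons, 0.858 for the side of the exon and 0.0145 for cassette exons, and no call changed.

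Of the 607 shared sites, 340 had at least 10 reads in each replicate, and 3 reads were the smallest number at which a peak was enriched. Folds of replicates 1 and 2 were recovered and those of replicate 3 deposited, so a difference between them in fold cannot be told apart from the form of the list. The test behind P also differed, and the same limit holds for the number of enriched peaks and the shares among them. Of the enriched peaks of replicate 3, 835 overlapped places that the lists of replicates 1 or 2 (any RBP) hold against the external background and not against the CC, taken here as repeats, and leaving them out gave 600 sites and 414 genes.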
